A study of Mus musculus and Rattus norvegicus with 28 samples.

Results

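In neonatal rat ventricular cardiomyocytes (NRVCs) kept in culture, 55 genes had a lower transcript level in each of the 3 libraries treated with trichostatin A (TSA) than in each of the 3 DMSO libraries by a wide margin. The genes were selected on those measured values. A gene was taken when its mean level in DMSO was at least 3 FPKM (fragments per kilobase of transcript, scaled to the mapped fragments of the library) and its highest TSA value was under 0.65 times its lowest DMSO value. Of 11183 rat genes that carried a symbol and reached the minimum in DMSO, 57 met this rule, which is 0.510% of them. Atp6v0d2 and Mmp12 were set aside by name, leaving the 55 genes described here. The same rule turned upward was met by 274 of 11423 genes, or 2.40%, so fewer genes met the rule downward than upward. Because the rule used the rat values, the differences between TSA and DMSO are given below as a description, with no test on the selected genes.

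The rat cells came from left ventricles of Sprague Dawley pups at postnatal day 1 (P1), were pre-plated to remove cells other than cardiomyocytes, and received either 100 nM TSA one day after plating or DMSO, the vehicle, as the negative control. Mouse cardiomyocytes were isolated from wild-type C57BL/6 left ventricles at embryonic day 18.5 (E18.5), then at 3 ages after birth, P1, P3 and P7, and were pre-plated in the same way and profiled without drug by RNA-seq and by ATAC-seq, an assay of accessible chromatin, with 2 libraries for each assay and time point. The study describes its experiments as biologically replicated, but no source used here says whether the rat libraries came from separate cultures or animals, so p-values measure the spread between these samples, which may be technical in part. Both species contributed males and females. The rat libraries held 28200000 to 38500000 aligned reads and the mouse RNA-seq libraries 29300000 to 37500000, as estimated from the ratio of coverage to FPKM in the files and a read length of 150 bases.

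TSA blocks histone deacetylases, the enzymes that take acetyl groups off histone tails and other proteins. Acetylated histones are a mark of open and transcribed chromatin, yet inhibitors of this class lower a set of genes as well as raising others, and they are known to slow the cell cycle and to dampen inflammatory genes in macrophages. Cultures of neonatal ventricle also hold fibroblasts, macrophages and vessel cells next to the cardiomyocytes. These are bulk samples, in which fewer cells of a type and less RNA per cell cannot be told apart.

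Cardiomyocyte markers were abundant in every rat library. The summed level of the 17 cardiomyocyte markers found ran from 17140 to 20160 FPKM in DMSO and from 15110 to 28590 FPKM in TSA. Library 3 of each rat group stood apart from libraries 1 and 2. In DMSO 3 the 25 macrophage markers found summed to 658 FPKM against 1387 in DMSO 1 and 1430 in DMSO 2, and the TSA libraries held 736, 623 and 551 FPKM in order of their number. The macrophage total thus overlapped between the groups through DMSO 3. Fibroblast markers ranged from 6538 to 7145 FPKM in DMSO and from 3640 to 6092 FPKM in TSA. Among 13625 genes tested with limma, 247 (1.81%) were called higher and 43 (0.316%) were called lower with TSA. With the replicate number as a block, since same-numbered rat libraries deviated together, 259 were called higher and 80 lower. These counts rested on single libraries. Without TSA 1 or without TSA 2 no gene was called in either direction, with 1082 and 1066 genes higher and 706 and 674 lower at an unadjusted p under 0.05. Without DMSO 1 the test called 68 genes higher and 4 lower, without DMSO 2 it called 110 and 15, and without TSA 3 it called 119 and 21. Without DMSO 3 it called 282 higher and 164 lower.

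The 55 genes were sorted by what their products are known to do, after their names were seen. There were 15 genes of phagocytes and immune signalling, 10 of matrix and connective tissue, 8 of mitosis, 10 of metabolism, transport and the secretory pathway, 7 of signalling, channels, hormones and surface proteins, and 5 loci without a gene name. The median gene was at 36.1% of its DMSO mean, within a range of 5.85% to 56.7%, and the median over the 11183 eligible genes was 100.6%. In 49 of the 55 genes the TSA mean was under 50% of the DMSO mean, and in 9 it was under 25%. Levels were mostly modest. A DMSO mean of 10 FPKM or more was found for 32 genes and of 100 FPKM or more for 3 genes. A single annotated transcript was listed for 44 of the 55, or 80.0%, against 70.1% of the eligible genes.

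**Figure D1:**
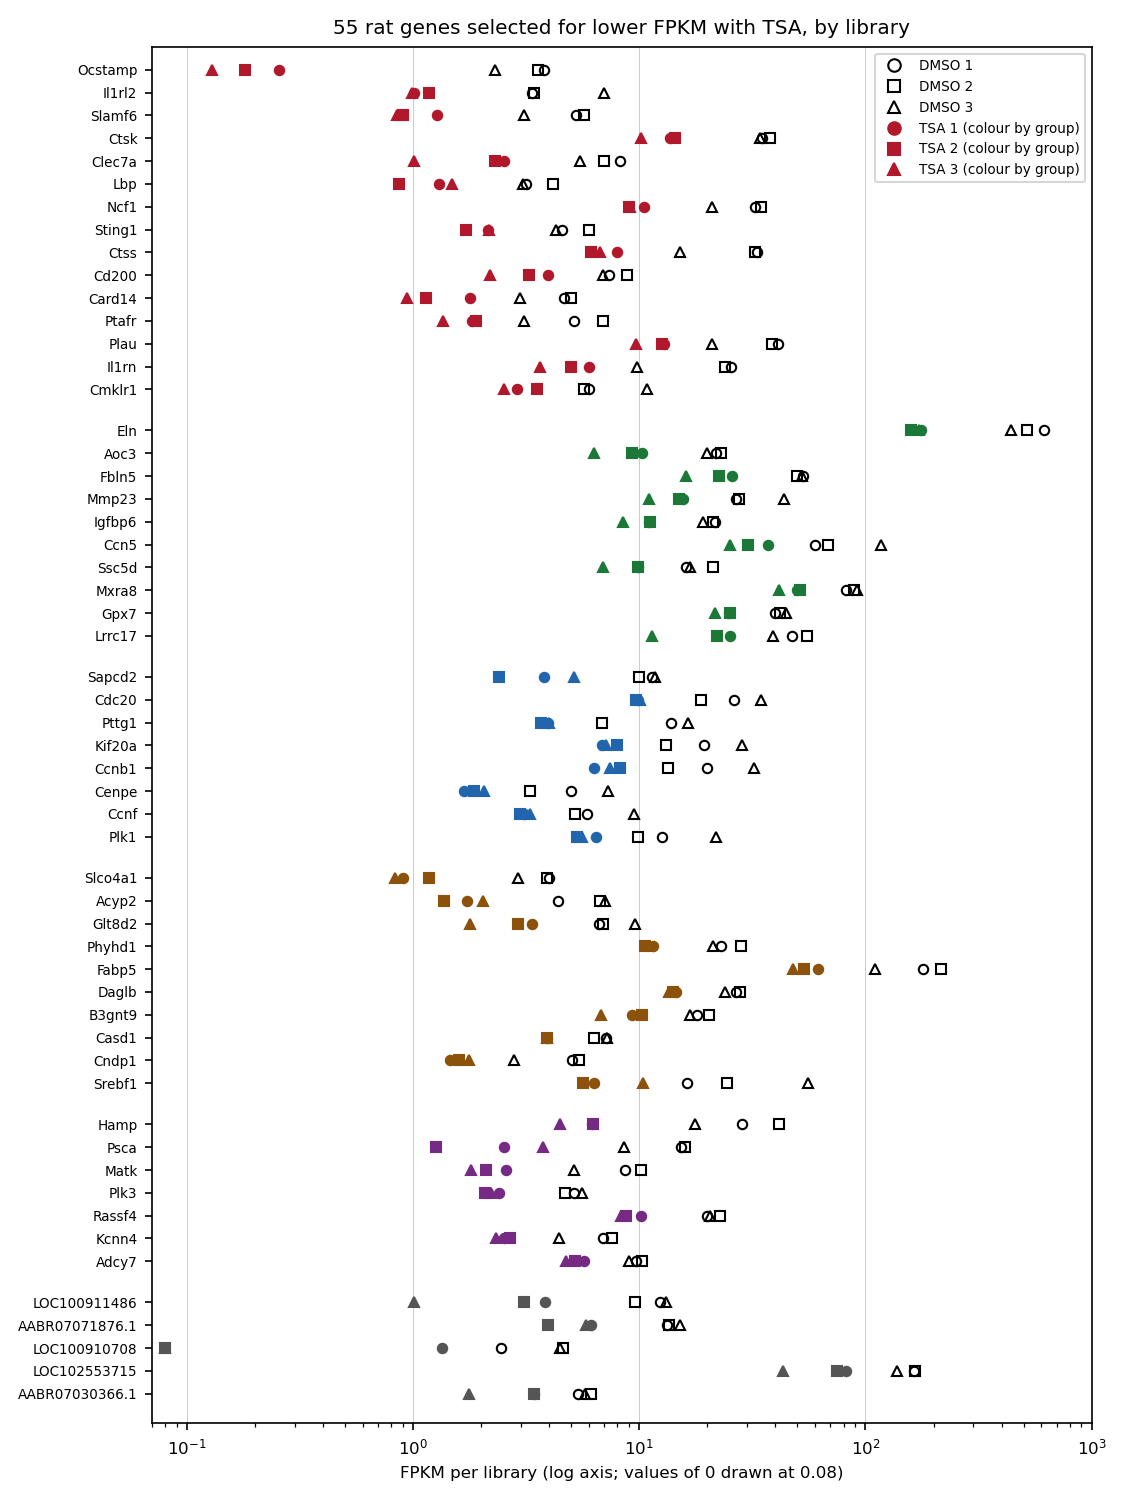
Level of each of the 55 genes in FPKM (log axis), with open symbols for the 3 DMSO libraries and filled symbols for the 3 TSA libraries, grouped by function from phagocyte and immune genes at the top to unnamed loci at the bottom. The rule fixes the gap between open and filled symbols; Ocstamp has the widest gap, and triangles (library 3) lie on the low side for most phagocyte genes and on the high side for mitosis genes in DMSO.

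The gene with the lowest share of its DMSO level was a phagocyte gene. Ocstamp encodes a membrane protein needed for the fusion of osteoclasts and of macrophages into giant cells. It lies on rat chromosome 3 from 162075340 to 162080192 on the minus strand (Rnor_6.0). Its level was 3.78, 3.57 and 2.30 FPKM in the DMSO libraries and 0.256, 0.179 and 0.129 FPKM in the TSA libraries. The means were 3.21 ± 0.802 and 0.188 ± 0.0638 FPKM (SD, n = 3), which put TSA at 5.85% of DMSO, the lowest share of the 55 genes. Its partner in fusion, Dcstamp, was under the level minimum of the rule and so no member. Dcstamp stood at 1.46, 1.62 and 1.07 FPKM in DMSO and at 0.0687, 0.0836 and 0.164 FPKM in TSA.

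Lysosomal cysteine proteases were also in this group. Ctsk, the collagen-degrading cathepsin of osteoclasts, had 34.7, 37.9 and 34.2 FPKM in DMSO and 13.7, 14.3 and 10.1 FPKM in TSA. Its DMSO values were close together. Ctss, the cathepsin that trims the invariant chain in antigen-presenting cells, had 33.0, 32.4 and 15.1 FPKM in DMSO and 7.98, 6.12 and 6.72 FPKM in TSA. Here DMSO 3 was less than the other DMSO libraries by a wide margin. Ctsk and Ctss are neighbours on rat chromosome 2, 989340 bp apart with 2 genes between them.

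Receptors and effectors of innate immunity made up most of the remainder. Clec7a, the beta-glucan receptor dectin-1, had 8.25, 6.95 and 5.46 FPKM in DMSO and 2.52, 2.30 and 1.01 FPKM in TSA. Ncf1, the cytosolic organiser subunit of the phagocyte NADPH oxidase, had 32.5, 34.4 and 21.0 FPKM in DMSO and 10.5, 8.98 and 9.12 FPKM in TSA. Slamf6, a surface receptor of lymphocytes, had 5.23, 5.72 and 3.09 FPKM in DMSO and 1.28, 0.902 and 0.849 FPKM in TSA. In all 3 genes the lowest DMSO value was that of DMSO 3. Il1rl2, the receptor subunit for interleukin-36, went the other way among the controls, with 3.34, 3.41 and 6.97 FPKM in DMSO and 1.01, 1.17 and 0.985 FPKM in TSA. Lbp, the protein that binds bacterial lipopolysaccharide, had 3.17, 4.15 and 3.06 FPKM in DMSO and 1.303, 0.862 and 1.48 FPKM in TSA. Its TSA values varied more than those of Ncf1 relative to their mean.

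Plau, the urokinase plasminogen activator, was among the 10 most abundant of the 55 genes, with 40.8, 38.5 and 20.9 FPKM in DMSO and 12.8, 12.6 and 9.69 FPKM in TSA. Il1rn, the secreted antagonist of the interleukin-1 receptor, averaged 19.7 ± 8.65 FPKM in DMSO and 4.89 ± 1.18 FPKM in TSA (SD, n = 3). The DMSO SD of Il1rn came from DMSO 3, at 9.78 FPKM against 25.4 and 24.0. Sting1, the adaptor that senses cyclic dinucleotides, averaged 4.94 and 2.003 FPKM. Ptafr, the receptor for platelet-activating factor, averaged 5.05 and 1.69 FPKM, and Cmklr1, the chemerin receptor, 7.51 and 2.98 FPKM. Cd200, a ligand that restrains myeloid cells, averaged 7.69 and 3.13 FPKM. Card14, a scaffold of NF-kappaB signalling, averaged 4.21 and 1.29 FPKM.

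Macrophage markers were looked at beside these genes. Of the 21 macrophage markers tested in rat, 17 had a lower fitted value with TSA, 2 were called lower by limma (Ctss and Clec7a, both selected on this contrast) and 1, C1qc, was called higher. C1qc, a chain of complement C1q, had 5.45, 8.01 and 3.40 FPKM in DMSO and 17.4, 18.9 and 19.0 FPKM in TSA (log2 fold change 1.61, SE 0.25, adjusted p = 0.0224, limma with Benjamini-Hochberg). Lyz2, the lysozyme of myeloid cells and the most abundant of the list, had 777, 779 and 390.0 FPKM in DMSO and 398.5, 340.1 and 304 FPKM in TSA, so DMSO 3 fell inside the TSA range. Cd163, Cx3cr1 and Lyve1 were under 1 FPKM in every rat library, and F13a1 passed 1 FPKM only in TSA 3, at 3.2 FPKM. The 21 tested markers reached 1 FPKM in at least 3 rat libraries. Among them Mrc1 had 22.1, 21.7 and 8.09 FPKM in DMSO and 8.85, 7.82 and 5.77 FPKM in TSA. C1qa had 32.1, 33.3 and 13.8 FPKM in DMSO and 31.6, 24.8 and 23.1 FPKM in TSA. The low markers therefore do not show that resident macrophages were absent. With Ctss and Clec7a taken out, the 23 other macrophage markers found summed to 1346, 1391 and 637 FPKM in DMSO and to 725, 614 and 543 FPKM in TSA. Per 100 FPKM of those markers, the 15 phagocyte and immune genes together held 16.2, 16.1 and 23.5 FPKM in DMSO and 9.65, 10.4 and 9.74 FPKM in TSA. Since the 15 genes were picked for low TSA values, the lower ratio in TSA is part of the selection, and the part of the macrophage share in their difference was not tested.

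Among 20 genes of a lysosome and osteoclast list, 4 were called lower with TSA and none higher, with 7 lower and none higher at an unadjusted p under 0.05 in limma. Ocstamp, Ctsk and Ctss of these were selected on this contrast, and Dcstamp was the fourth (log2 difference -1.10). It is given without a test, since Dcstamp reached 1 FPKM only in the DMSO libraries and so passed the minimum only through them. Lamp1, a main lysosomal membrane protein, averaged 226 FPKM in DMSO and 186 FPKM in TSA and did not pass the test.

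The matrix and connective tissue genes held the most abundant of the 55. Eln encodes tropoelastin, the core of elastic fibres in vessel walls. It had 616, 518 and 441 FPKM in DMSO and 176, 158 and 172 FPKM in TSA. The TSA values differed little among themselves. Fbln5, the fibulin that tethers elastin to cells and guides fibre assembly, had 52.9, 49.7 and 52.2 FPKM in DMSO and 25.8, 22.6 and 16.0 FPKM in TSA. Thus both a fibre protein and an assembly factor were in the set. Eln lies 475241 bp from Ncf1 on rat chromosome 12 with 12 genes between them.

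Ccn5, a secreted CCN family protein that lacks the C-terminal domain of its relatives, had 59.6, 68.1 and 117 FPKM in DMSO and 36.9, 30.2 and 25.2 FPKM in TSA. Mxra8, a surface protein of stromal cells known as an alphavirus receptor, had 82.3, 89.3 and 91.7 FPKM in DMSO and 50.03, 51.2 and 41.3 FPKM in TSA. Both were above 50 FPKM in DMSO, and Ccn5 was highest in DMSO 3. Lrrc17, a secreted leucine-rich repeat protein that restrains osteoclast formation, had 47.1, 55.3 and 39.1 FPKM in DMSO and 25.2, 22.0 and 11.4 FPKM in TSA. Gpx7, a peroxidase of the endoplasmic reticulum, had 39.7, 41.8 and 44.7 FPKM in DMSO and 24.8, 25.2 and 21.5 FPKM in TSA. TSA 3 was the lowest TSA library for both of these, as it was for 9 of the 10 genes of this group. Mmp23, a membrane-bound metalloproteinase, averaged 32.5 FPKM in DMSO and 13.9 FPKM in TSA. Aoc3, the amine oxidase of vessels and fat, averaged 21.5 and 8.60 FPKM. Igfbp6, a binding protein with preference for IGF-II, averaged 20.7 and 10.2 FPKM, and Ssc5d, a secreted scavenger receptor, 18.0 and 8.88 FPKM. Mmp23 and Mxra8 lie 206608 bp apart on rat chromosome 5 with 12 genes between them.

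In the extracellular matrix list, 13 of the 16 genes tested had a lower fitted value with TSA, but Eln, selected on this contrast, was the only one called in limma, with 4 lower and none higher at an unadjusted p under 0.05. Fn1 averaged 846 FPKM in DMSO and 608 FPKM in TSA, Sparc averaged 2111 and 1597 FPKM, and neither passed the test. Of the 10 fibroblast markers tested, 1 was called higher, Thy1, and none lower, with 1 lower at an unadjusted p under 0.05. Per 100 FPKM of fibroblast markers the 10 matrix genes held 15.04, 12.8 and 13.1 FPKM in DMSO and 6.34, 6.13 and 8.79 FPKM in TSA. The lower ratio in TSA is again part of the selection. The fibroblast total itself was lowest in TSA 3, and its part in the matrix genes was not tested.

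The mitosis genes act from entry into mitosis to its exit. Ccnb1 encodes cyclin B1, the partner of CDK1, and Plk1 the polo-like kinase that drives centrosome maturation and spindle assembly. Cdc20 activates the anaphase-promoting complex, Pttg1 encodes securin, which that complex destroys, Cenpe and Kif20a encode mitotic kinesins, Ccnf encodes cyclin F, a ubiquitin ligase subunit, and Sapcd2 encodes a protein that orients the spindle. Plk1 had 12.5, 9.90 and 21.7 FPKM in DMSO and 6.43, 5.33 and 5.60 FPKM in TSA. Ccnb1 had 19.9, 13.4 and 32.2 FPKM in DMSO and 6.31, 8.22 and 7.40 FPKM in TSA. Cdc20 had 26.3, 18.8 and 34.5 FPKM in DMSO and 9.87, 9.62 and 10.1 FPKM in TSA. In each case DMSO 2 was the lowest and DMSO 3 the highest control, while the TSA libraries lay close together. Pttg1 averaged 12.3 FPKM in DMSO and 3.88 FPKM in TSA, Kif20a 20.3 and 7.32 FPKM, Sapcd2 11.04 and 3.78 FPKM, Ccnf 6.83 and 3.11 FPKM, and Cenpe 5.19 and 1.87 FPKM.

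Genes of DNA replication were read beside them, and the 4 named next did not pass the test. Within the DNA replication and mitosis list, Mcm2 averaged 20.1 FPKM in DMSO and 24.9 FPKM in TSA. The TSA values of Mcm2 were 20.6, 20.9 and 33.3 FPKM, so its higher TSA mean came from TSA 3. Tyms averaged 19.2 FPKM in DMSO and 21.8 FPKM in TSA. Mcm5 had 13.7, 11.6 and 15.6 FPKM in DMSO and 15.4, 11.8 and 35.1 FPKM in TSA, so its higher TSA mean came from TSA 3. Rrm2, a subunit of ribonucleotide reductase, averaged 41.03 FPKM in DMSO and 32.2 FPKM in TSA. Over the list, 12 of 17 genes tested had a lower fitted value, 1 was called lower (Cdc20, selected on this contrast) and none higher, with 7 lower and none higher at an unadjusted p under 0.05 in limma. The 14 genes of the list that were not selected summed to 328, 244 and 402 FPKM in DMSO and to 237, 222 and 399.6 FPKM in TSA. The 8 mitosis genes summed to 162 FPKM in DMSO 3 and 44.7 FPKM in TSA 3, a direction that their selection fixes.

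**Figure D2:**
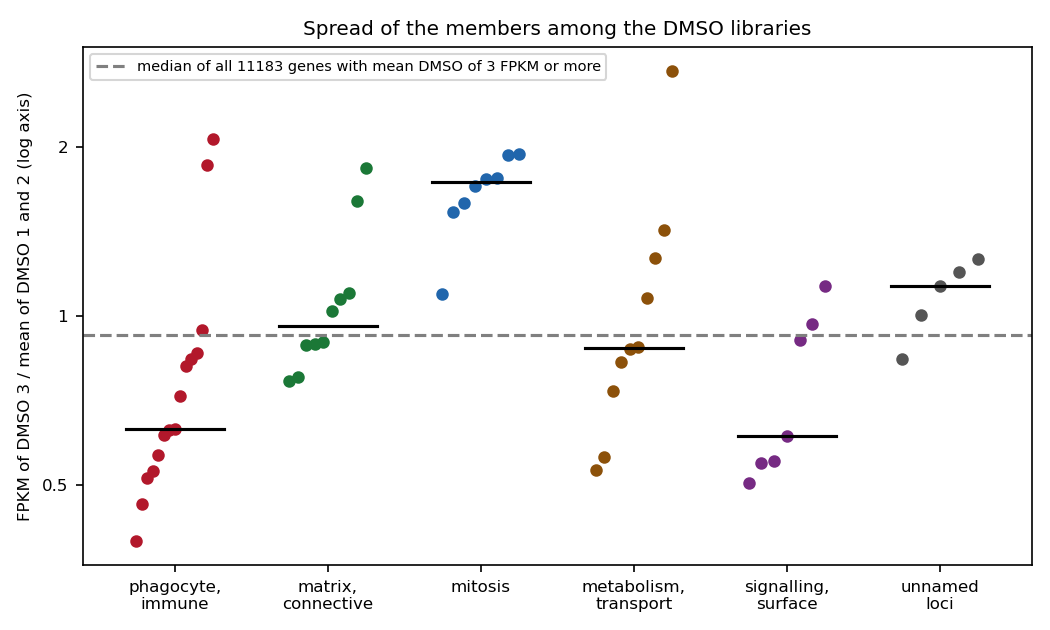
Each point is 1 of the 55 genes and gives its level in DMSO 3 divided by the mean of DMSO 1 and 2 (log axis), by functional group, with a black bar at the group median. The dashed line marks the median of all eligible genes at 0.925; the mitosis genes lie above it with a median of 1.73, and the phagocyte and immune genes have a median of 0.628.

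The controls themselves separated the groups of genes. All 8 mitosis genes were highest in DMSO 3 among the DMSO libraries, and 13 of the 15 phagocyte and immune genes were lowest there. Over the 11183 eligible genes 29.7% were highest and 56.2% lowest in DMSO 3. The median ratio of DMSO 3 to the mean of DMSO 1 and 2 was 1.73 for the mitosis genes, 0.628 for the phagocyte and immune genes and 0.610 for the signalling and surface genes. Matrix genes had a median ratio of 0.957 and metabolic genes one of 0.875, near the 0.925 of all eligible genes. The ratio was not used by the rule directly, but the lowest DMSO value was, so a gene low in DMSO 3 had to have still lower TSA values to be selected.

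Promoter sequences of the mouse genes are shown for the mitosis and phagocyte groups, because mitotic genes are known to carry a cell cycle genes homology region (CHR, searched as TTTGAA) near their start, often beside a CCAAT box, and myeloid genes often carry a purine-rich PU.1 core (searched as GAGGAA). Rat sequence was not used here. RefSeq promoters of GRCm38.p6, which run from upstream of a transcript start to a short way past it, were found for 35 of the 50 genes with a mouse match. Each motif was searched on both strands, and none of the 3 words contains another, although neighbouring words can share an end letter. TTTGAA was in the promoter of 3 of 7 mitosis genes, Plk1, Cdc20 and Ccnf, against 20.2% of 27025 genes. CCAAT was in 5 of 7, which added Ccnb1 and Cenpe, against 41.1% of all genes. Both were in 3 of 7, against 7.97% of all genes. GAGGAA was in 6 of 10 phagocyte and immune genes, Cd200, Clec7a, Cmklr1, Ctsk, Ctss and Ptafr, against 31.2% of all genes. It was also in 4 of 6 genes of metabolism, transport and the secretory pathway, so the word was not particular to the phagocyte group. A match of letters is a description and not a binding site.

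The 4 mitosis promoters below have TTTGAA and CCAAT in capitals, in either orientation. They are Plk1 at chr7:122159185-122159484 on the plus strand, Cdc20 at chr4:118437294-118437593, Ccnf at chr17:24251360-24251659 and Ccnb1 at chr13:100786437-100786736, the last 3 on the minus strand, each read 5′ to 3′ along the gene. In Cdc20 the TTTGAA begins 18 bases before the start, and in Plk1 it begins 31 bases after it.
Plk1: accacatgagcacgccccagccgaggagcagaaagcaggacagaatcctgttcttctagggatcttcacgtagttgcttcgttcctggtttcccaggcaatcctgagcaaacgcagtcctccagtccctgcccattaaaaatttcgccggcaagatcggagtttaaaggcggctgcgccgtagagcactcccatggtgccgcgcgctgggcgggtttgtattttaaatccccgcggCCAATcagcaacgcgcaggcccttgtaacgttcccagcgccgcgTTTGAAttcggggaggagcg
Cdc20: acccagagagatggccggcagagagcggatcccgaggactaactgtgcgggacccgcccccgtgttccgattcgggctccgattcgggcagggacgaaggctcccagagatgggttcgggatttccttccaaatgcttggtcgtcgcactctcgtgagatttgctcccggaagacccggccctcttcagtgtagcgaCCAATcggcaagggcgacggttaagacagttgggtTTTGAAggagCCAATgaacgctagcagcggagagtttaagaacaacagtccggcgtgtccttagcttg
Ccnf: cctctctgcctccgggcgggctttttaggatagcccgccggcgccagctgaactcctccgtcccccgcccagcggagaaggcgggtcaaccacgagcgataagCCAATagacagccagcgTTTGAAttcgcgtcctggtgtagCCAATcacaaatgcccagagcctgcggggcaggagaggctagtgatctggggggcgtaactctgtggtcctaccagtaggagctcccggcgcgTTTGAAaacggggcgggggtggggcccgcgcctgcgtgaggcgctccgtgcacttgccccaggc
Ccnb1: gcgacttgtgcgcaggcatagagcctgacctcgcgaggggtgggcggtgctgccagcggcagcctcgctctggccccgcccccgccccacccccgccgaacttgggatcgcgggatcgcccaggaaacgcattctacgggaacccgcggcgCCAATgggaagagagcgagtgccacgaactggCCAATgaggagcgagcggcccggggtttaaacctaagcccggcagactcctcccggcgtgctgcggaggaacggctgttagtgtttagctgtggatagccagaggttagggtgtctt

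The 3 phagocyte promoters have GAGGAA or its reverse complement in capitals. They are Ctsk at chr3:95498960-95499259 and Ctss at chr3:95526536-95526835, both on the plus strand, and Clec7a at chr6:129472730-129473029 on the minus strand, for which RefSeq lists 2 overlapping promoters.
Ctsk: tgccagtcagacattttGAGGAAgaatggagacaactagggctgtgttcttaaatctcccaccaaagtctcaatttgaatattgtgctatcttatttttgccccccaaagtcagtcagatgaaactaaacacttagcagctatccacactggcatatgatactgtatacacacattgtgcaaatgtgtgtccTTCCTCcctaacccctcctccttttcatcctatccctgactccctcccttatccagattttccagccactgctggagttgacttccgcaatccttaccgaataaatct
Ctss: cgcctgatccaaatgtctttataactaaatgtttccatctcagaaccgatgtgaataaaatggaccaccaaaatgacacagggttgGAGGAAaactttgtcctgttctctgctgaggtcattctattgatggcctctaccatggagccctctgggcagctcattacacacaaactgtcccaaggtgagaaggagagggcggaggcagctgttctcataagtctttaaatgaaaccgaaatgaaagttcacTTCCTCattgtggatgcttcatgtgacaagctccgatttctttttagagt
Clec7a: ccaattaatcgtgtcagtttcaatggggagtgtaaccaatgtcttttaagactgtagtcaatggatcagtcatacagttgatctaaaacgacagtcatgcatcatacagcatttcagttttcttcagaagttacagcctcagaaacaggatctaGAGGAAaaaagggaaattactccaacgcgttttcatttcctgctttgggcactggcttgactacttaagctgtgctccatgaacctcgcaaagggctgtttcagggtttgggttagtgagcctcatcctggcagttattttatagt

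Lipid metabolism supplied the second most abundant of the 55 genes. Fabp5, a cytosolic fatty acid carrier of macrophages, endothelium and skin, had 179, 215 and 110.1 FPKM in DMSO and 61.8, 53.6 and 47.6 FPKM in TSA. DMSO 3 was the lowest control. Srebf1, the transcription factor that switches on fatty acid synthesis, spread widely among controls, at 16.2, 24.5 and 55.6 FPKM in DMSO and 6.32, 5.64 and 10.4 FPKM in TSA. Its TSA 3 value was close to the limit set by DMSO 1. The cholesterol synthesis list summed to 338, 314 and 1024 FPKM in DMSO and to 240, 234 and 708 FPKM in TSA, so the libraries numbered 3 were high in both groups, and none of its 14 genes was called in limma or had an unadjusted p under 0.05.

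Slco4a1, a carrier that takes up organic anions such as thyroid hormone, had 3.98, 3.92 and 2.90 FPKM in DMSO and 0.902, 1.17 and 0.834 FPKM in TSA. Acyp2, the muscle acylphosphatase, had 4.37, 6.73 and 7.03 FPKM in DMSO and 1.74, 1.36 and 2.04 FPKM in TSA. They were at 26.9% and 28.4% of their DMSO means. Daglb, a lipase that makes the endocannabinoid 2-arachidonoylglycerol, averaged 26.2 FPKM in DMSO and 14.0 FPKM in TSA. Phyhd1, a dioxygenase, averaged 24.1 and 11.1 FPKM. B3gnt9, Glt8d2 and Casd1, enzymes that modify sugars in the secretory pathway, averaged 18.4, 7.70 and 6.88 FPKM in DMSO and 8.77, 2.68 and 3.90 FPKM in TSA. Cndp1, the secreted carnosine dipeptidase, averaged 4.42 and 1.61 FPKM.

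Signalling genes included a hormone. Hamp encodes hepcidin, the peptide that lowers iron export by degrading ferroportin. It had 28.5, 41.5 and 17.6 FPKM in DMSO and 6.19, 6.22 and 4.45 FPKM in TSA, or 19.2% of the DMSO mean. Psca, a small anchored surface antigen, had 15.2, 15.9 and 8.58 FPKM in DMSO and 2.52, 1.26 and 3.74 FPKM in TSA, or 18.9%. Matk, a kinase that restrains SRC family kinases in blood cells, had 8.63, 10.2 and 5.14 FPKM in DMSO and 2.57, 2.09 and 1.80 FPKM in TSA. DMSO 3 was the lowest control for all 3. Rassf4, a RAS association domain protein, averaged 21.0 FPKM in DMSO and 9.04 FPKM in TSA. Adcy7, an adenylyl cyclase of blood cells, averaged 9.66 and 5.19 FPKM, Kcnn4, a calcium-activated potassium channel, 6.30 and 2.51 FPKM, and Plk3, a stress-response kinase, 5.12 and 2.22 FPKM.

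The 5 loci without a gene name are given by position on Rnor_6.0. LOC102553715 (chr10:49000973-49003931, plus strand) was the third most abundant of the 55 genes, with 164, 166 and 138 FPKM in DMSO and 82.3, 74.7 and 43.2 FPKM in TSA. LOC100911486 (chr5:171472273-171620947, plus strand) had 12.3, 9.60 and 13.1 FPKM in DMSO and 3.82, 3.10 and 1.01 FPKM in TSA. Both had their lowest value in TSA 3. AABR07071876.1 (chr1:72624705-72625239, plus strand) had 13.3, 13.5 and 15.1 FPKM in DMSO and 6.12, 3.95 and 5.80 FPKM in TSA. It lies 163158 bp from Ssc5d. AABR07030366.1 (chr10:82738276-82743304, minus strand) had 5.34, 6.14 and 5.74 FPKM in DMSO and 3.43, 3.42 and 1.77 FPKM in TSA. LOC100910708 (chr4:62019970-62030874, plus strand) had 2.44, 4.62 and 4.45 FPKM in DMSO and was listed at 1.35, 0 and 0 FPKM in TSA. What these loci encode is not given in the files.

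The limit divides a continuum. Just inside it lay Plk1 at a ratio of highest TSA to lowest DMSO of 0.649, Lrrc17 at 0.646, AABR07030366.1 at 0.642, Srebf1 at 0.640 and Gpx7 at 0.634. Just outside lay Hvcn1, a proton channel of phagocytes, with 30.8, 30.2 and 16.0 FPKM in DMSO and 10.5, 9.83 and 8.53 FPKM in TSA, at a ratio of 0.653. Scx, a tendon transcription factor, had 20.1, 18.6 and 21.1 FPKM in DMSO and 8.60, 12.2 and 11.8 FPKM in TSA. Hk3, the hexokinase of myeloid cells, had 19.2, 21.5 and 8.77 FPKM in DMSO and 5.75, 5.22 and 4.77 FPKM in TSA. In Hvcn1 and Hk3 DMSO 3 was the lowest control. Tmem71 had 18.6, 11.1 and 11.7 FPKM in DMSO and 6.04, 7.36 and 4.53 FPKM in TSA. Gbp6, an interferon-induced GTPase, had 2.85, 2.80 and 4.28 FPKM in DMSO and 1.83, 1.85 and 1.07 FPKM in TSA, at a ratio of 0.662. DMSO 3 set how many genes met the rule. Without it 252 genes did, and without both libraries numbered 3, an alternative added after the data were seen, 311 genes did. All 55 were among them each time, which the rule nearly fixes. Leaving out a library cannot raise the highest TSA value or reduce the lowest DMSO value. With size factors 72 genes met the rule, and 51 of the 55 were among them.

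The fixed gene lists held few of the selected genes. Of 23 lists, 6 held at least 1 of them and 10 of the 55 were in a list. Across all lists 286 genes were tested, 8 were called lower with TSA and 10 higher, and 7 of those called lower were among the 55. The remaining one was Dcstamp, which passed the minimum only through its DMSO libraries. The histone deacetylase list, whose products TSA inhibits, summed to between 209.5 and 239.6 FPKM in DMSO and to between 203 and 246.5 FPKM in TSA, and none of its 10 genes tested was called in limma, with 1 lower and 2 higher at an unadjusted p under 0.05.

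The mouse libraries took no part in the selection, so the same symbols could be tested there for change across birth. Of the 55 genes, 49 had a mouse gene of the same symbol, Sting1 was found under its older symbol Tmem173, and the 5 unnamed loci had no match. Of the 50 matched genes, 42 reached 1 FPKM in at least 2 of the 8 mouse libraries and were tested. Relative to E18.5, limma called 11 of 42 higher at P1, 15 at P3 and 17 at P7, which is 26.2%, 35.7% and 40.5%. Over all 13979 genes tested the shares called higher were 10.1%, 13% and 15.4%. Called lower were 3 of 42 at P1, 3 at P3 and 2 at P7, or 7.14%, 7.14% and 4.76%, against 6.06%, 8.88% and 12.3% of all genes tested. A gene was called when its adjusted p was under 0.05 and it differed by more than 1 on the log2(FPKM + 1) scale. The median log2 fold change of the 42 genes at P7 was 0.62, and that of all genes tested was 0.15. With size factors the median of all genes at P7 moved to -0.03, and the share of calls over all genes that were higher went from 62.5% to 44.0% at P1, from 59.4% to 44.4% at P3 and from 55.7% to 43.9% at P7. Of the 42 genes, 9, 14 and 16 were then called higher and 4, 4 and 2 lower, where 7.05%, 9.57% and 11.99% of all genes were called higher and 8.96%, 11.97% and 15.33% lower. A gene that passed the minimum only through its later time points, such as Ccn5 and Slco4a1, had to differ from E18.5, so these shares are descriptions.

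**Figure D3:**
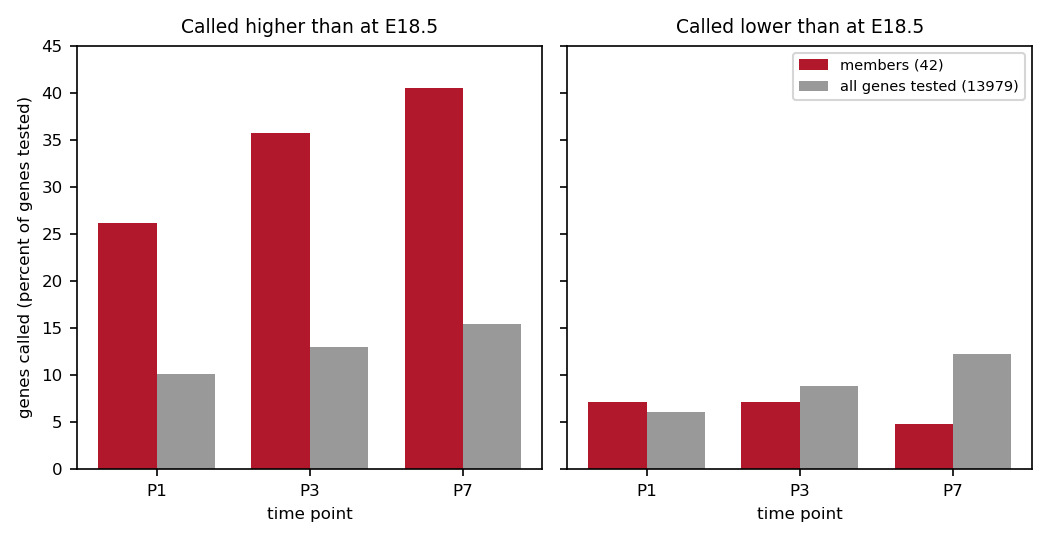
Share of genes called higher (left) or lower (right) than at E18.5 for each postnatal age, as a percentage of the genes tested, for the 42 tested member symbols (red) and for all 13979 genes tested (grey). At P7 40.5% of the member symbols were called higher against 15.4% of all genes.

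Cell markers changed strongly across the same mouse libraries. All 18 cardiomyocyte markers were called lower at P7, and their sum went from 35030 and 44450 FPKM in the E18.5 libraries to 2678 and 1149 FPKM in the P7 libraries. Fibroblast markers summed to 487 and 489 FPKM at E18.5 and to 3042 and 3773 FPKM at P7, with 11 of 12 called higher. Macrophage markers summed to 118 and 106 FPKM at E18.5, to 305 and 232 FPKM at P3 and to 210 and 176 FPKM at P7, with 5 of 21 called higher and 3 lower. Erythroid genes summed to 29050 and 35400 FPKM at E18.5 and to at most 41.8 FPKM in any later library. The part of these shifts in the members' changes was not tested.

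**Figure D4:**
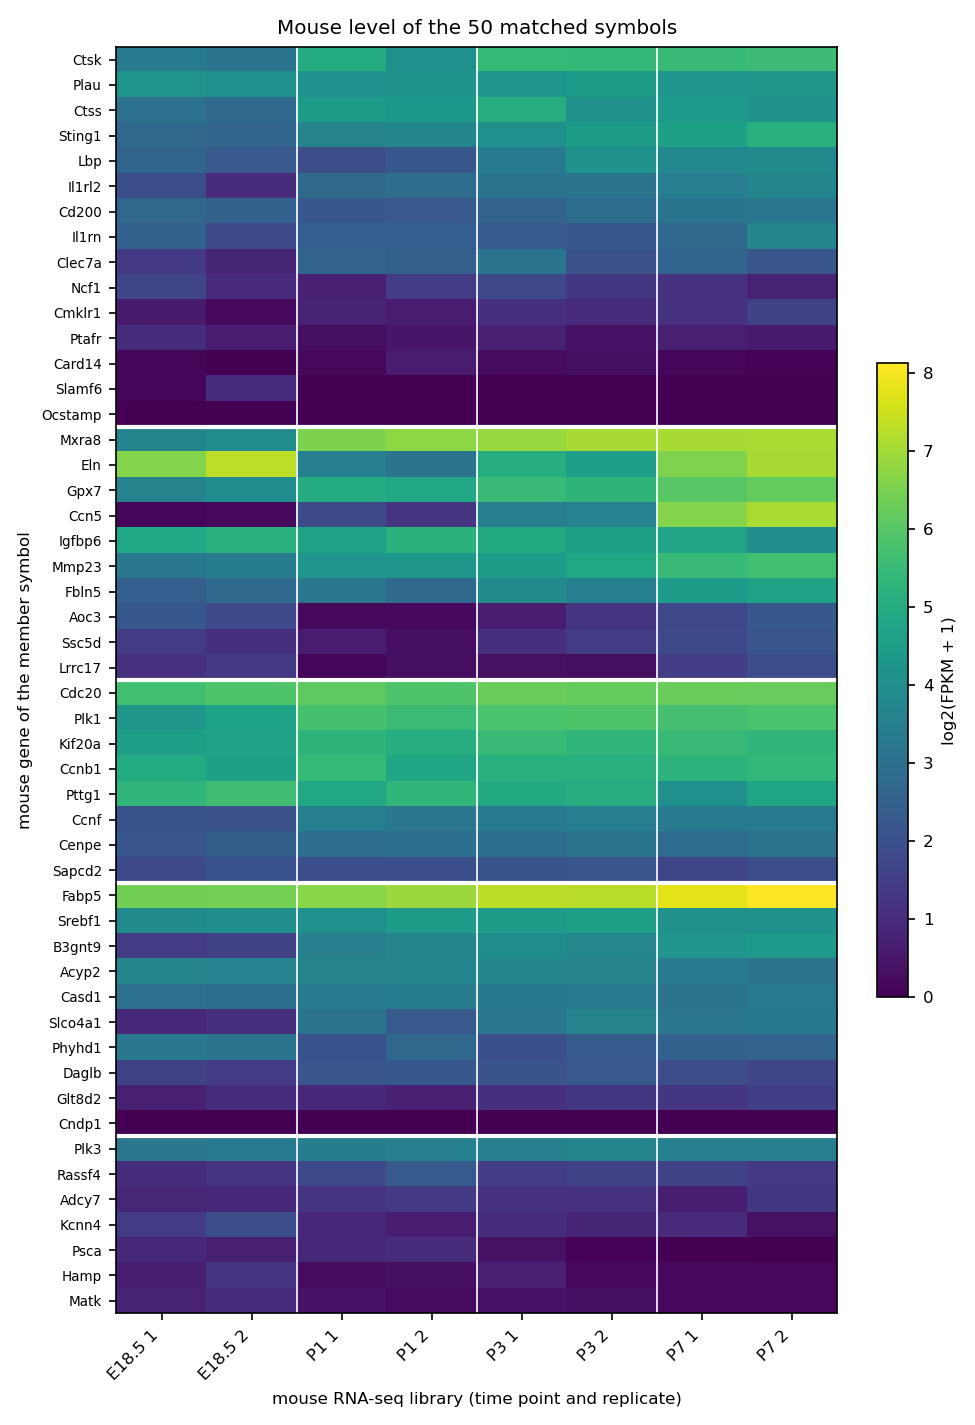
Level of the 50 matched symbols in the 8 mouse RNA-seq libraries as log2(FPKM + 1), with 2 libraries per time point and white lines between the functional groups. Matrix genes such as Ccn5 and Mxra8 brighten from E18.5 to P7, and Eln dims at P1 and returns by P7. Mitosis genes are detected in every library, with Sapcd2 the dimmest on average, and Pttg1 dims by P7.

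The largest rises were in matrix genes, Ccn5 and Mxra8. Ccn5 had 0.0827 and 0.153 FPKM at E18.5, 2.69 and 1.32 FPKM at P1, 10.2 and 11.1 FPKM at P3 and 97.7 and 135 FPKM at P7 (log2 difference 6.70, given without a test since Ccn5 passed the minimum only through its later libraries). Mxra8 had 11.8 and 14.2 FPKM at E18.5, 92.0 and 105 FPKM at P1, 116 and 133 FPKM at P3 and 133 and 135 FPKM at P7 (log2 fold change 3.27, SE 0.14). The rise of Mxra8 was mostly complete at P1, and that of Ccn5 was not. Gpx7 had 11.4 and 14.6 FPKM at E18.5 and 63.4 and 73.1 FPKM at P7, Mmp23 had 8.49 and 9.92 and then 43.2 and 49.6 FPKM, and Fbln5 had 4.35 and 5.93 and then 21.3 and 24.8 FPKM. These 5 of the 10 matrix genes were called higher at P7, a count that includes Ccn5, and none was called lower. Over all genes tested 15.4% were called higher and 12.3% lower.

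Eln followed another course. It had 97.0 and 158 FPKM at E18.5, 10.3 and 7.80 FPKM at P1, 32.7 and 22.5 FPKM at P3 and 92.4 and 133 FPKM at P7. It was called lower at P1 (log2 fold change -3.65, SE 0.29, adjusted p = 0.000113) and at P3 (-2.15, adjusted p = 0.000664), and at P7 the difference was -0.16 (adjusted p = 0.664). Aoc3 had the same order, with 3.69 and 2.44 FPKM at E18.5, 0.145 and 0.145 FPKM at P1, 0.533 and 1.38 FPKM at P3 and 2.38 and 3.72 FPKM at P7, and was called lower at P1 and P3. Lrrc17 had 1.22 and 1.59 FPKM at E18.5, 0.103 and 0.222 FPKM at P1, 0.294 and 0.238 FPKM at P3 and 1.78 and 2.77 FPKM at P7, and was called lower at P1. The call of Lrrc17 was lost without E18.5 replicate 2 and without P1 replicate 1, and that of Aoc3 at P3 without E18.5 replicate 1 and without P3 replicate 1. In all 3 genes the P1 libraries lay under every E18.5 and every P7 library.

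Of the 15 phagocyte and immune genes, 11 were tested in mouse. At P7, 7 of these (63.6%) were called higher and none lower in limma, against 15.4% and 12.3% of all genes tested. At an unadjusted p under 0.05, 9 were higher and none lower, against 4980 and 3467 of all 13979 genes tested. The 9 include Cmklr1, at 0.501 and 0.125 FPKM at E18.5, which passed the minimum only through its P3 and P7 libraries. Both counts include Clec7a, described below, so they are descriptions. Ctsk had 9.12 and 7.81 FPKM at E18.5, 31.1 and 15.8 FPKM at P1, 42.7 and 41.7 FPKM at P3 and 44.6 and 46.5 FPKM at P7 (log2 fold change at P7 2.30, SE 0.26, adjusted p = 0.000196). Sting1 had 5.64 and 5.31 FPKM at E18.5, 11.4 and 12.2 FPKM at P1, 15.8 and 20.7 FPKM at P3 and 23.4 and 35.0 FPKM at P7 (log2 fold change 2.19, SE 0.21). Il1rl2 had 2.87 and 1.04 FPKM at E18.5, 5.995 and 6.44 FPKM at P1, 7.71 and 7.81 FPKM at P3 and 10.01 and 12.1 FPKM at P7 (log2 fold change 2.1, SE 0.28). All later libraries lay above both E18.5 libraries for these 3 genes. Ctss, Clec7a, Lbp and Il1rn were the other 4 called higher. Clec7a, at 1.60 and 0.798 FPKM at E18.5, passed the minimum only with its later libraries, so its call is a description. Of these, Clec7a lost its P7 call without E18.5 replicate 2 and without P7 replicate 1, and Il1rn lost it without E18.5 replicate 2 and without P7 replicate 2. Plau had 18.0 and 15.8 FPKM at E18.5 and 18.2 and 18.8 FPKM at P7 and did not pass the test.

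All 8 mitosis genes were detected in every mouse library, with Sapcd2 the lowest at 2.24 to 3.52 FPKM. Plk1 had 18.5 and 25.4 FPKM at E18.5, 53.6 and 44.99 FPKM at P1, 55.5 and 57.8 FPKM at P3 and 51.8 and 55.2 FPKM at P7 (log2 fold change at P7 1.26, SE 0.17, adjusted p = 0.000403). Ccnf was the other one called higher at P7. Cdc20 had 49.9 and 58.4 FPKM at E18.5 and 75.8 and 74.1 FPKM at P7, with Kif20a at 22.4 and 24.9 and then 43.0 and 40.1 FPKM and Ccnb1 at 31.1 and 23.6 and then 37.0 and 40.8 FPKM. These 3 did not reach a log2 fold change of 1. Pttg1 fell, from 40.0 and 49.0 FPKM at E18.5 through 28.0 and 40.1 at P1 and 29.9 and 32.6 at P3 to 15.7 and 26.8 FPKM at P7 (log2 fold change -1.07, SE 0.26, adjusted p = 0.00829). Its call was lost without E18.5 replicate 2 and without P7 replicate 1. The P1 call of Plk1 was lost without E18.5 replicate 1.

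Of 9 metabolic genes tested, 3 were called higher, Slco4a1 among them, and none lower at P7. At an unadjusted p under 0.05 in limma, 4 were higher and 2 lower. Of 4 signalling genes tested, none was called higher and 1 lower, with none higher and 1 lower at an unadjusted p under 0.05. Over all 13979 genes tested, 15.4% were called higher and 12.3% lower, and 4980 were higher and 3467 lower at an unadjusted p under 0.05. Fabp5 had the highest mouse level of the 50 genes, with 83.8 and 84.2 FPKM at E18.5, 102 and 118 FPKM at P1, 156 and 153 FPKM at P3 and 219.7 and 278 FPKM at P7 (log2 fold change 1.55, SE 0.14, adjusted p = 7.1e-05). B3gnt9 had 1.74 and 1.998 FPKM at E18.5, 10.6 and 12.0 FPKM at P1, 14.6 and 12.7 FPKM at P3 and 17.8 and 19.4 FPKM at P7 (log2 fold change 2.77, SE 0.15). Slco4a1 had 0.872 and 1.14 FPKM at E18.5, 7.70 and 3.86 FPKM at P1, 8.36 and 11.4 FPKM at P3 and 8.43 and 8.74 FPKM at P7 (log2 difference 2.26, without a test for the same reason as Ccn5). In these 3 genes every later library lay above both E18.5 libraries. Phyhd1 was called lower at P3 only, a call lost without E18.5 replicate 1 and without P3 replicate 1. Kcnn4 was called lower at P7, at 1.63 and 2.86 FPKM at E18.5 and 0.943 and 0.284 FPKM at P7 (log2 difference -1.01, without a test since Kcnn4 passed the minimum mainly through the E18.5 libraries), a call lost without E18.5 replicate 2 and without P7 replicate 2.

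Some genes of the set were near 0 in mouse. Ocstamp did not exceed 0.02405 FPKM in any mouse library. Ocstamp, Slamf6, Card14, Ptafr, Hamp, Psca, Matk and Cndp1 were the 8 matched genes under the minimum, and Cndp1 was listed at 0 in all 8 libraries. Hamp reached 1.35 FPKM in E18.5 replicate 2 and at most 0.647 FPKM in the P1, P3 and P7 libraries, against 17.6 to 41.5 FPKM in the rat DMSO cultures. The species, the culture and the annotation differ between those values, so they are set side by side without a comparison.

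Accessible chromatin at the same mouse genes was read as the presence of an ATAC-seq peak within 2.5 kb of any annotated transcript start in both libraries of a time point. Such a peak was present for 16 of the 50 genes in E18.5 cardiomyocytes, for 11 in P1, for 38 in P3 and for 32 in P7 cells. Among the 42 genes tested for expression the shares were 38.1%, 23.8%, 83.3% and 73.8%, against 56.7%, 41.3%, 87.5% and 83.2% of all 13979 genes tested. The libraries held from 13149 to 95257 peaks. With the 13149 strongest peaks of each library, the counts were 12, 6, 12 and 15 of 50, so the P3 count then equalled that at E18.5. Of the 42 tested genes these were 28.6%, 14.3%, 28.6% and 35.7%, against 54.1%, 31.5%, 37.3% and 45.2% of all genes tested.

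**Figure D5:**
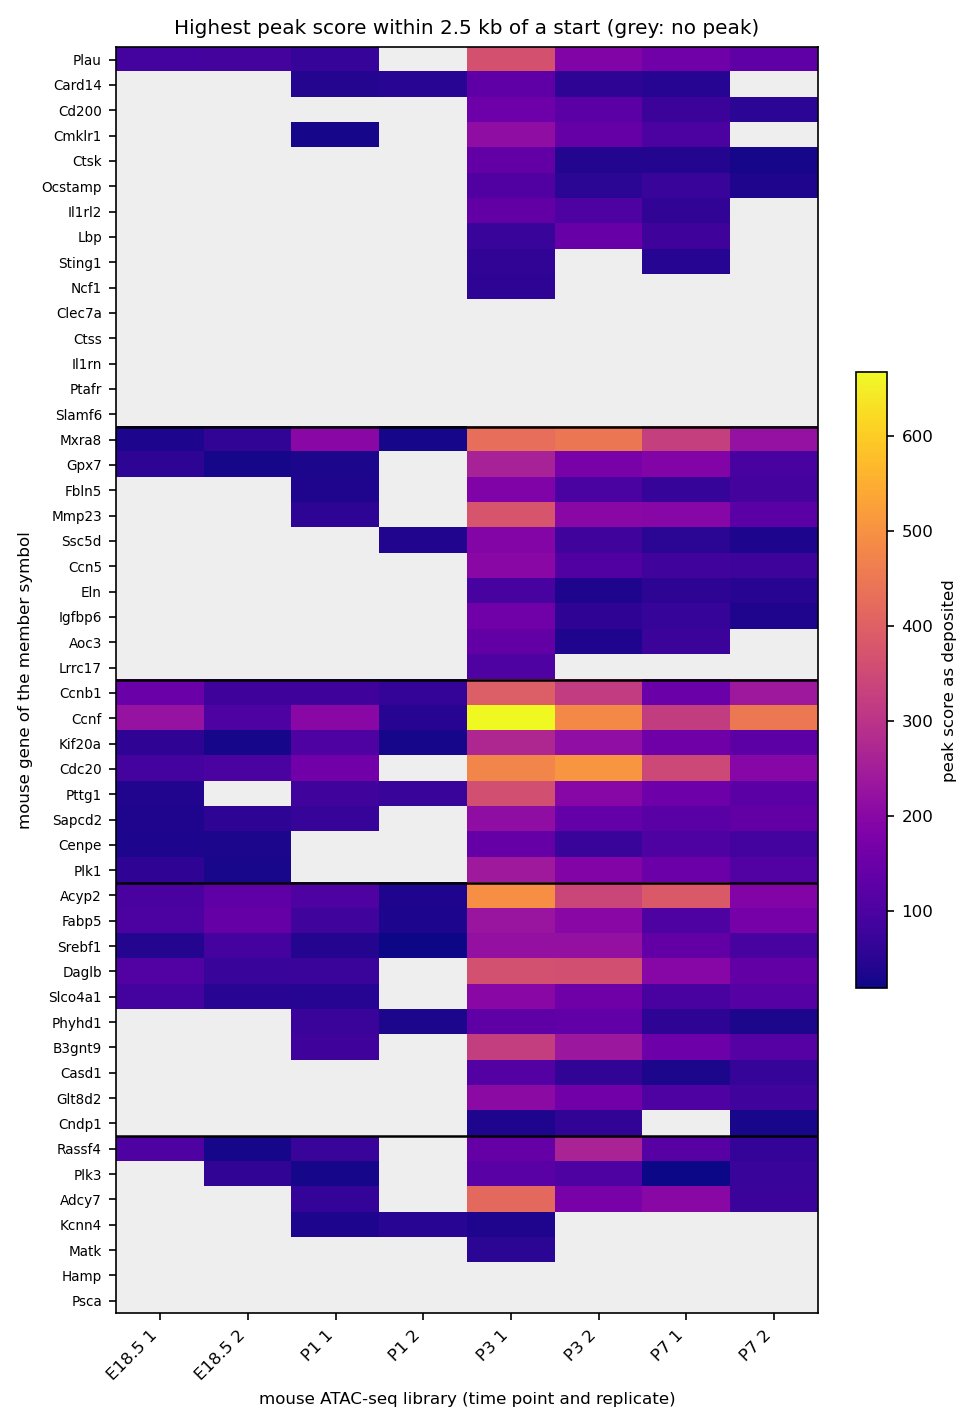
Highest deposited peak score within 2.5 kb of a transcript start for the 50 matched genes (rows, grouped by function with black lines) in the 8 mouse ATAC-seq libraries (columns); grey means no peak. Mitosis genes carry peaks in 6 to 8 libraries, and 5 of the 15 phagocyte and immune genes, at the top, carry none.

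The counts are given by functional group, and the difference between groups was not tested. The E18.5 libraries held 13149 and 14910 peaks, fewer than any later library. The part of this in peaks missing there, such as that of Eln, was not tested. Of the 8 mitosis genes, 7 had a promoter peak at E18.5, 4 at P1 and 8 at both P3 and P7. Phagocyte and immune genes had 1, 1, 8 and 4 of 15. Ocstamp, Slamf6, Card14 and Ptafr of the 15 were under the expression minimum in mouse. Over all genes tested, which had to pass that minimum, the shares with a peak were 56.7%, 41.3%, 87.5% and 83.2% by rising age. Clec7a, Ctss, Il1rn, Ptafr and Slamf6 had no peak in any of the 8 libraries, although Ctss reached 32.2 FPKM and Clec7a 7.81 FPKM in the mouse RNA. Ctsk, whose promoter is printed above, had peaks in the 2 P3 and the 2 P7 libraries. Matrix genes had 2, 1, 9 and 8 of 10 in the same order of age, and Mxra8 was the 1 with a peak in all 8 libraries. Eln had peaks in the P3 and P7 libraries, with scores of 94, 37, 55 and 46, and none in the E18.5 libraries, where its RNA was at 97.0 and 158 FPKM. Among the 42 genes tested for expression, 7 had a peak in all 8 libraries, against 36.6% of all genes tested, and 3 (Clec7a, Ctss and Il1rn) had none in any, which was close to the 7.22% of all genes tested.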

How the data were processed

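RNA-seq was measured in 6 rat and 8 mouse libraries and ATAC-seq in 8 mouse libraries. The authors trimmed reads with cutadapt, aligned RNA reads with HISAT2 2.1.0 and assembled transcripts with StringTie 1.3.5, per the labels (the headers of the rat files name 1.3.4d), and deposited FPKM and TPM for each transcript. For ATAC-seq the authors used Bowtie2, Picard and MACS2 and deposited peak lists whose peak score was used here. HiChIP was not used here.

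Gene FPKM was summed over the transcripts of a gene identifier. The rule for the 55 genes and the gene lists were chosen with earlier results of these data known. Values were tested as log2(FPKM + 1) with limma 3.58.1 in R 4.3.3 after keeping genes at 1 FPKM or more in at least 2 mouse or 3 rat libraries, since the files used hold no counts. A fold change on this scale understates the change of low genes. A gene was called at a Benjamini-Hochberg adjusted p under 0.05 with a log2 difference beyond 1. On simulated data with 200 genes changed by 2 on the log2 scale, the fit called 91.5% of them for P7 against E18.5 over 13979 mouse genes and 91% for TSA against DMSO over 13625 rat genes, with 3 false calls in each. These shares describe the generated values only, and recovery of smaller differences was not tested. In the measured rat values no gene was called in either direction without TSA 1 or without TSA 2. Python 3.11.15, pandas 2.3.3, numpy 2.4.6 and matplotlib 3.10.9 were also used.

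Rat libraries with the same number deviated together (r = 0.2263, 0.2116 and 0.3884 across genes), so the number was a block in an alternative fit. The main rat fit, which gave the calls and p-values of single genes and lists, had no block. DMSO 1 with TSA 2 (r = 0.1698) and DMSO 2 with TSA 1 (r = 0.1935) came close, so the correlations set library 3 apart more than they tell libraries 1 and 2 from each other. Library values are given for the 15 genes with the lowest ratio of highest TSA to lowest DMSO value, the 10 most abundant in DMSO and the 5 on each side of the limit. In mouse they are given for the 10 largest rises and falls called at P7 and the 10 highest levels, with a few others chosen after their values were seen. Alternatives were TPM, size factors, no filter, a pseudocount of 0.1, the replicate block, leaving out each library, other limits of the rule and other peak criteria. Depth limits precision for low genes, and no counting interval could be given without counts.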

Additional observations from a re-analysis of the deposited data

How the results depend on the processing

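The number of genes meeting the rat rule was 55. It was 85 with TPM, 88 with a mean DMSO level of at least 1 FPKM, 14 with a limit of 0.5, and 62 to 252 when 1 library was left out, the highest without DMSO 3. With DMSO 3 and TSA 3 both left out, an alternative chosen after seeing the data, it was 311. With size factors it was 72, with 51 of the 55 among them. Over all rat genes the 43 called lower became 23 without the filter, 80 with the replicate block and 0 to 164 with 1 library left out, and the 247 called higher became 0 to 282 with 1 library left out. Of the 42 mouse genes tested, the 3 called lower at P1 became 5 with a pseudocount of 0.1 and 2 to 4 with 1 library left out. The 3 lower at P3 became 1 to 3 with 1 library left out, the lowest without P3 replicate 1. The 2 lower at P7 became 1 without the filter and 0 to 2 with 1 library left out, 0 without E18.5 replicate 2, where 4 were lower at an unadjusted p under 0.05 in limma, and 1 without P7 replicate 2. Promoter peaks at P1 in 11 of 50 genes became 6 with equal numbers of peaks, 25 with a peak in either library and 12 to 24 with 1 library left out. At P3 the 38 genes became 12, and at P7 the 32 became 15, with equal numbers of peaks. The cause of these shifts was not tested. The 51 member calls in mouse gave 663 values over the alternatives, of which none reversed and 37 lost the call. Calls lost by leaving out 1 library, beside those given with the genes, were Ctsk, Gpx7, Il1rl2 and Clec7a at P1 and Lbp, Fbln5 and Clec7a at P3. The replicate block changed no mouse call, and same-numbered mouse libraries did not all deviate together (r from -0.0964 to 0.1713), so they share only a number. Few libraries per time point limit the precision of all these values.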
